A study of Mus musculus with 16 samples.

Results

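The epithelial miRNAs described here were the 5 mature miRNAs of the miR-200 family (mmu-miR-200a-3p, mmu-miR-200b-3p, mmu-miR-200c-3p, mmu-miR-141-3p and mmu-miR-429-3p), mmu-miR-205-5p, mmu-miR-203-3p and the precursor entry mmu-mir-203, given below without the species prefix except where each is first described. These 8 entries were chosen by name out of 15159 non-coding RNAs (ncRNAs), of which 1247 were miRNA entries, and all 8 were found with at least 1 read. They were measured in small RNA libraries of small extracellular vesicles from plasma (pEVs), with 1 library from each of 8 PS19 and 8 wild-type (WT) mice. PS19 mice carry a human MAPT transgene with the P301S mutation under the Prnp promoter, which drives expression widely in the nervous system, and were used as heterozygotes on a B6;C3 background. The WT mice were littermates without the transgene. Mice of both groups were about 9.6 months old, males and females in equal number by the study's methods, and the labels do not give the sex of each mouse. Vesicles were precipitated from 200 µL of plasma, so vesicles from every tissue that reaches the blood could be present. The questions were whether these miRNAs differed between the genotypes, and whether miR-203 moved with the other epithelial miRNAs from library to library.

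The miR-200 family is enriched in epithelial cells, where it represses the transcription factors Zeb1 and Zeb2 and helps to keep the epithelial state. miR-205 is enriched in stratified and basal epithelia. miR-203 is abundant in skin, where it limits the proliferation of keratinocyte progenitors by repressing p63. A mature miRNA finds its targets mainly through its seed, the bases 2 to 8 from its 5′ end.

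The mature sequences are shown because they define which members share targets and which are nearly identical. They were taken from RefSeq for GRCm38.p6, where all 7 were matched by name, and capitals mark the seed.
miR-200a-3p: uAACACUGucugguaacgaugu
miR-141-3p: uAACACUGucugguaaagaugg
miR-200b-3p: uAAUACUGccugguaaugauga
miR-200c-3p: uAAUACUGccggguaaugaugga
miR-429-3p: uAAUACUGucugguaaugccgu
miR-205-5p: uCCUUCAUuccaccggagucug
miR-203-3p: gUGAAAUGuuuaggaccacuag
The family fell into 2 seed groups, miR-200a-3p with miR-141-3p and miR-200b-3p with miR-200c-3p and miR-429-3p. Counted from 1 at the 5′ end, the seeds of miR-200a-3p and miR-200b-3p differed by the single substitution C4U. Among 1679 mature miRNAs in the table, no others carried these seeds, and the seeds of miR-205-5p and miR-203-3p were each found once. Over the first 22 bases miR-200a-3p and miR-141-3p differed at 2 positions (C17A and U22G), and miR-200b-3p and miR-200c-3p also at 2 (U11G and A22G). How reads with an error or a trimmed end were divided between such members is not given in the sources used here, so the split within these pairs is uncertain, above all for the rarer miR-141-3p and miR-200c-3p.

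The genes lie at 4 places in GRCm38. Mir200b (chr4:156055681-156055750), Mir200a (chr4:156054896-156054985) and Mir429 (chr4:156053905-156053987) sit on the minus strand of chromosome 4 within 1846 bases. All lie in introns of Ttll10, and Mir429 also overlaps an exon of the non-coding transcript Gm13648. Mir200c (chr6:124718322-124718390) and Mir141 (chr6:124717914-124717985) lie within 477 bases on the minus strand of chromosome 6, in an intron of the antisense transcript Gm15884. Mir205 (chr1:193507463-193507530, minus strand) overlaps an exon of the lincRNA 4631405K08Rik. Mir203 (chr12:112130880-112130955, plus strand) overlaps no other gene of the annotation on its own strand, and the nearest protein-coding gene, Aspg, is 3321 bases away. The hairpin of Mir203 is shown because the precursor entry counts reads within it, and capitals mark the mature miR-203-3p.
Mir203 hairpin: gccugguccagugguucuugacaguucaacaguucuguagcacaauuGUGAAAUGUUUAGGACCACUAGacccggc
miR-203b lies on the opposite strand of the same place. Its 3p product (chr12:112130887-112130908) lies across the first arm of the hairpin, and its 5p product (chr12:112130927-112130946) across miR-203-3p itself (chr12:112130927-112130948). The strand setting of the counting is not given in the sources used here, so if reads were counted by position without strand, those of miR-203 and miR-203b cannot be told apart. No entry for miR-203b was listed.

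Summed over all entries, libraries held 36220722 to 117583663 reads. miRNA entries took 0.0645 to 1.87% of them in PS19 and 0.289 to 7.51% in WT, which left 52562 to 1246139 miRNA reads in PS19 and 339731 to 2720314 in WT. With 1 entry kept per set of identical values, 11946 of the 15159 entries remained. Some reads may therefore count under more than 1 entry in these totals and shares. PS19 libraries 1, 3 and 4 had 71308, 166148 and 52562 miRNA reads, each under 50% of the median library (649021.5 reads). Normalized counts below are the authors' values, reads divided by a size factor for each library, and 1 read was worth 0.389 to 3.83 normalized counts. As a second scale, levels are given in miRNA RPM, reads per 1000000 miRNA reads of the library. The blood origin of the material was visible in the red blood cell miRNAs miR-451a, miR-486a-5p, miR-144-3p and miR-16-5p, whose sum was 9684 to 88057 miRNA RPM in PS19 and 31294 to 101157 in WT.

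miR-200a-3p and miR-203-3p were the most abundant of these miRNAs, and miR-141-3p and miR-429-3p were close to the limit of detection. Over all libraries miR-200a-3p had 6871 reads and ranked 75 among the 1247 miRNA entries by mean normalized count. miR-203-3p had 4770 reads and ranked 94. miR-200b-3p had 2045 reads, miR-205-5p 1156, miR-200c-3p 799, mir-203 238, miR-429-3p 160 and miR-141-3p 48. miR-205-5p was seen in 15 libraries, miR-141-3p in 10 and miR-429-3p in 9, whereas the others were seen in all 16. A count of 0 allows up to 3 reads, which is 1.17 to 11.5 normalized counts depending on the library, and this covers counting error only. Within the family, miR-200a-3p took 69.2% of reads, miR-200b-3p 20.6%, miR-200c-3p 8.05%, miR-429-3p 1.61% and miR-141-3p 0.484%. These are shares of reads and not of molecules, and the 2 miRNAs of the chromosome 6 cluster held the 3rd and the last place. The share of miR-200a-3p ran from 49.4% in WT library 7 to 86.3% in PS19 library 5.

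**Figure D1:**
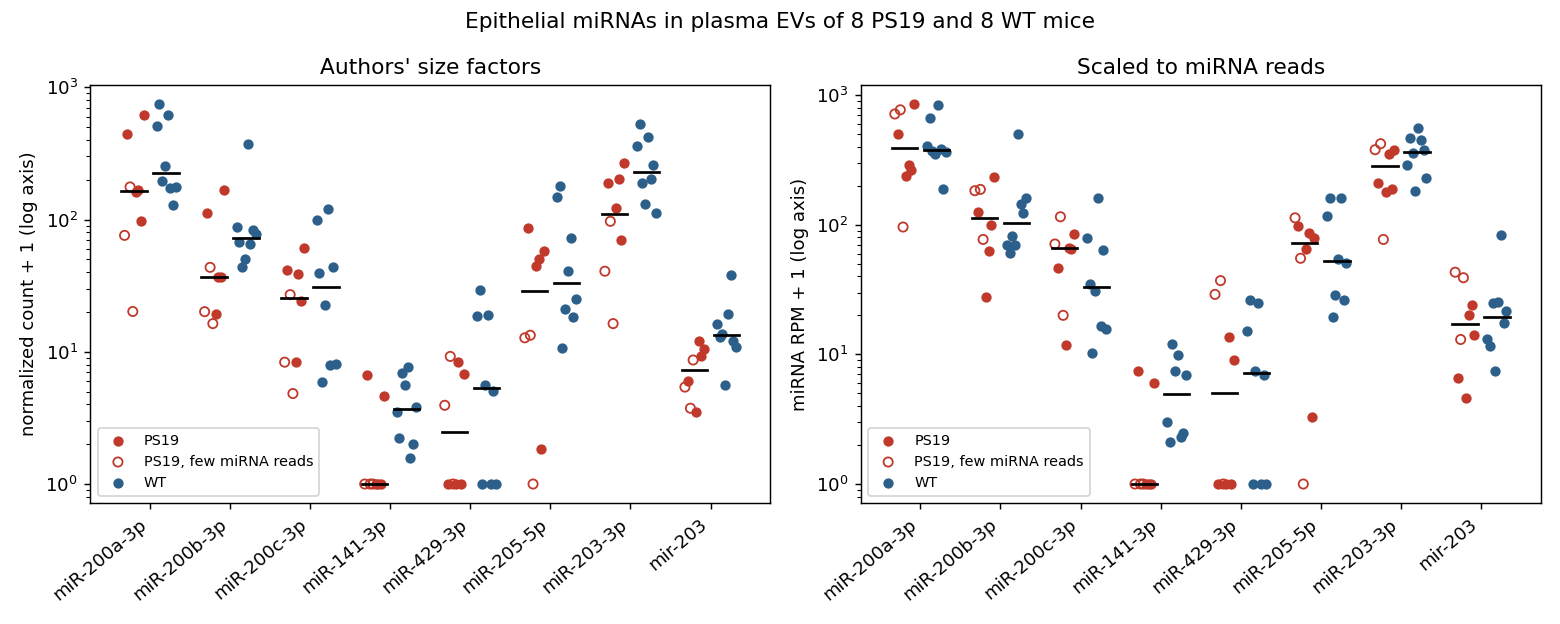
Level of each epithelial miRNA in every library, with the authors' normalized counts on the left and miRNA RPM on the right, both plus 1 on log axes. Each point is 1 library (8 PS19, 8 WT), bars mark medians and open circles are the PS19 libraries 1, 3 and 4 with few miRNA reads; the PS19 and WT points overlap for all 8 entries, and the miR-203-3p medians of 108.7 and 228.7 normalized counts are closer to each other on the right.

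mmu-miR-203-3p was lower in PS19 pEVs on the authors' scale. Its lowest, median and highest values were 15.3, 108.7 and 268.9 normalized counts in PS19 and 110.9, 228.7 and 523.1 in WT. All 8 WT libraries lay above the PS19 median, 4 PS19 libraries lay below the lowest WT library, and the groups overlapped. The means were 125 ± 87.9 and 274 ± 147 normalized counts (SD, 8 libraries each), and the log2 difference, PS19 minus WT, was -1.37 (95% interval -2.49 to -0.25, limma p = 0.0180, adjusted p = 0.829, exact permutation p = 0.0221). In miRNA RPM, the lowest, median and highest values were 76.1, 281 and 421.3 in PS19 and 181.4, 366.1 and 561.3 in WT. On that scale the log2 difference was -0.50 (95% interval -1.40 to 0.40, limma p = 0.261, exact permutation p = 0.174).

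The precursor entry mmu-mir-203 rested on few reads, 2 to 13 in each PS19 library and 3 to 64 in each WT library. Its lowest, median and highest values were 2.48, 6.34 and 11.03 normalized counts in PS19 and 4.63, 12.3 and 37.1 in WT. WT library 6 stood above the rest, and 6 WT libraries exceeded the highest PS19 library. The log2 difference was -1.06 (95% interval -2.07 to -0.06, limma p = 0.0380, exact permutation p = 0.0103), and -0.26 when scaled to miRNA reads (limma p = 0.650, exact permutation p = 0.616). Relative to the summed reads of both entries, the precursor entry held 4.21% in PS19 and 4.93% in WT. In single libraries the share ran from 2.0% to 33.3% in PS19, the highest in library 4 from 2 of 6 reads, and from 2.23% to 15.6% in WT, the highest in library 6, where mir-203 was highest. The lower level of miR-203 in PS19 was known when these miRNAs were chosen, so these values describe it and do not add support.

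Of the miR-200 family, 1 of 5 members passed the test, beside 4.85% of all ncRNAs in either direction and 10.9% downward of the miRNA entries with a mean of at least 10 normalized counts, and it was the one with the fewest reads. mmu-miR-141-3p was read in 2 PS19 and 8 WT mice, with 13 reads against 35. Its lowest, median and highest values were 0, 0 and 5.72 normalized counts in PS19 and 0.579, 2.69 and 6.61 in WT, and 6 of the WT libraries had 3 reads or fewer. The log2 difference on the log2(value + 1) scale was -1.23 (95% interval -2.42 to -0.04, limma p = 0.0433, exact permutation p = 0.0347). Scaled to miRNA reads it was -1.10 (limma p = 0.0657, exact permutation p = 0.0326). By limma it passed neither on that scale nor with library totals, DESeq2 and edgeR did not call it, and by limma it passed in 5 of the 16 fits that left out 1 library.

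mmu-miR-200a-3p, the most abundant member, ran from 19.2 over a median of 163.2 to 615.6 normalized counts in PS19 and from 127.7 over 223.7 to 748.1 in WT. Its log2 difference was -0.99 (95% interval -2.20 to 0.23, limma p = 0.107, exact permutation p = 0.145), and -0.11 when scaled to miRNA reads (95% interval -1.12 to 0.90, limma p = 0.819, exact permutation p = 0.808). mmu-miR-200b-3p ran from 15.3 over 35.9 to 167.2 in PS19 and from 43.0 over 71.9 to 370.5 in WT. WT library 5 held that highest value, more than any other library, and 6 of the PS19 libraries lay below the lowest WT library. Its log2 difference was -1.03 (95% interval -2.15 to 0.10, limma p = 0.0713, exact permutation p = 0.0813), and -0.16 when scaled to miRNA reads (limma p = 0.762, exact permutation p = 0.749).

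mmu-miR-200c-3p ran from 3.83 over 24.7 to 60.3 normalized counts in PS19 and from 4.88 over 29.9 to 119.7 in WT, and every PS19 library but library 4 lay inside the WT range. Its log2 difference was -0.37 (95% interval -1.76 to 1.02, limma p = 0.587, exact permutation p = 0.624), and it was positive, 0.47 (95% interval -0.80 to 1.73), when scaled to miRNA reads. mmu-miR-429-3p was listed at 0 in 4 PS19 and 3 WT libraries and reached 8.23 normalized counts in PS19 and 28.4 in WT. Its log2 difference was -0.90 (95% interval -2.52 to 0.73, limma p = 0.269, exact permutation p = 0.324), and -0.15 when scaled to miRNA reads (limma p = 0.858, exact permutation p = 0.891).

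mmu-miR-205-5p, the stratified epithelial miRNA, ran from 0 over 28.0 to 85.9 normalized counts in PS19 and from 9.76 over 32.1 to 178.1 in WT. PS19 library 4 had no read and PS19 library 7 had 1, whereas the other PS19 libraries had 8 to 120 reads. The log2 difference was -1.40 with a wide interval of -3.08 to 0.29 (limma p = 0.1004, exact permutation p = 0.189), and -0.75 when scaled to miRNA reads (limma p = 0.374, exact permutation p = 0.438).

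In all, 8 of 8 members had a negative log2 difference on the authors' scale and 3 passed at a raw p of 0.05 (miR-141-3p, miR-203-3p and mir-203), beside 4.85% of all ncRNAs in either direction. The same 3 passed by the exact permutation test, beside 3.96% of all ncRNAs. With DESeq2 2 of 8 passed (miR-203-3p and mir-203) beside 5.42%, and with edgeR 2 of 8 (miR-429-3p and mir-203) beside 15.1%. Downward, 2.13% of all ncRNAs, 5.05% of the miRNA entries and 10.9% of the 294 miRNA entries with a mean of at least 10 normalized counts passed. No ncRNA had an adjusted p under 0.05 with limma, where 735 had a raw p under 0.05, while DESeq2 gave 113 and edgeR 318 on the recovered reads. The median log2 difference of the 8 members was -1.05, beside -0.65 for those 294 miRNA entries (89.5% of them negative), -0.20 for all miRNA entries and -0.01 for all ncRNAs. When the reads were scaled to miRNA totals, the median of the 294 abundant miRNA entries moved to 0.19 and that of the 8 members to -0.21. On that scale 7 of 8 members stayed negative, all but miR-200c-3p, and 0 of 8 passed with limma, beside 7.46% of all ncRNAs in either direction and 0.660% downward. By the exact permutation test miR-141-3p passed on that scale (p = 0.0326). Scaled to library totals, 8 of 8 were negative and 0 passed, beside 2.91% in either direction. The part of the miRNA share of the libraries in these differences was not tested. The paper states that precipitation carried plasma albumin or lipoproteins along with the vesicles. With such bulk RNA, fewer vesicles from epithelial cells, less of these miRNAs per vesicle and a difference in co-precipitated material cannot be told apart.

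**Figure D2:**
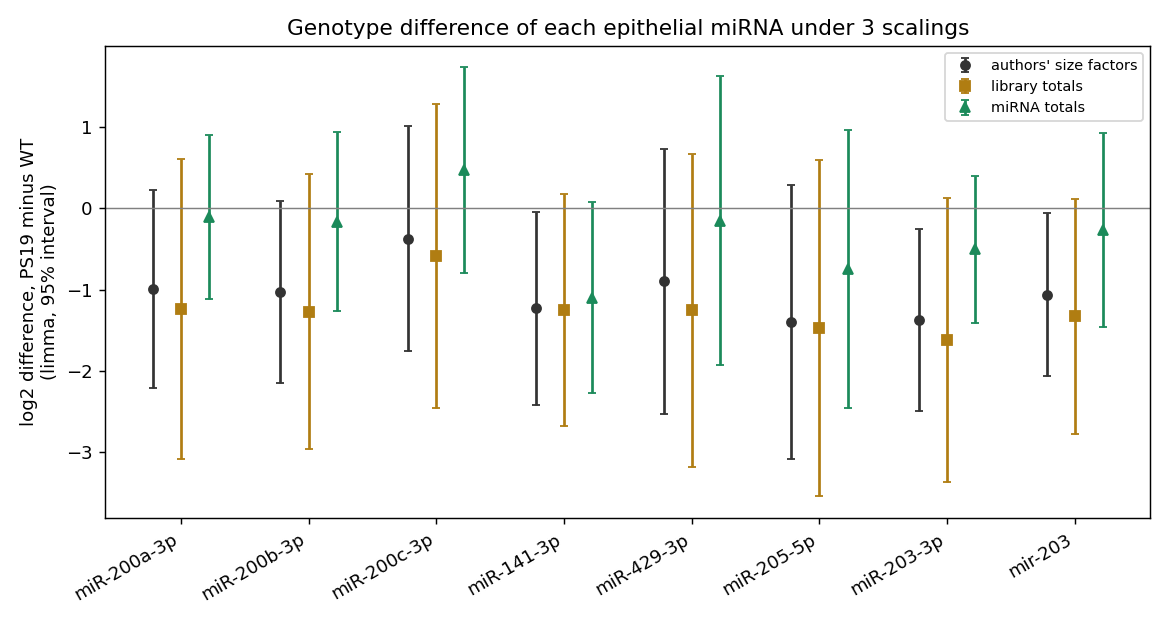
Log2 difference between PS19 and WT (PS19 minus WT) for each epithelial miRNA, with 95% intervals from limma, under the authors' size factors (circles), library totals (squares) and miRNA totals (triangles). Under the authors' scaling the intervals of miR-141-3p, miR-203-3p and mir-203 lie below 0, and under miRNA totals all 8 intervals include 0.

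The difference of miR-203-3p was smaller without the 3 PS19 libraries with few miRNA reads. PS19 library 4 had the lowest value of miR-200a-3p, miR-200b-3p, miR-200c-3p, miR-205-5p and miR-203-3p, from 5, 4, 1, 0 and 4 reads. Without PS19 libraries 1, 3 and 4, 0 of 8 members passed, beside 4.15% of the ncRNAs tested, and the log2 difference of miR-203-3p was -0.64 (limma p = 0.177, exact permutation p = 0.183). All PS19 library names begin with the letter G, as do those of WT libraries 2 and 4, while 4 WT names begin with F and 2 with A. What the letters stand for is not stated. Among the libraries named with G, the log2 difference of miR-203-3p was -1.50 (limma p = 0.144, exact permutation p = 0.178) and 0 of 8 members passed, beside 4.62% of the ncRNAs tested. Letter and genotype cannot be fully told apart, since all 8 PS19 names begin with G and F and A occur in WT alone.

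Because a ratio of 2 miRNAs within a library does not depend on the scaling apart from the added 1, miR-203-3p was also set against each other member. This comparison was added after the values above had been seen. miR-203-3p was lower than miR-200a-3p by a mean log2 ratio of -0.64 ± 0.515 in PS19 and -0.25 ± 0.621 in WT (SD), a difference of -0.39 (exact permutation p = 0.201). Against miR-205-5p the mean log2 ratio was 2.58 ± 1.41 in PS19 and 2.55 ± 1.11 in WT, a difference of 0.02 (exact permutation p = 0.970). Against miR-200c-3p the ratio was 2.25 ± 0.716 and 3.25 ± 1.23, and this difference of -1.002 was the largest of the 7 (exact permutation p = 0.0646, adjusted p = 0.453). None of the 7 ratios passed an exact permutation test at 0.05, so a change of miR-203-3p apart from the other epithelial miRNAs was not detectable with these libraries.

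The other products of the same genes were read next. Of 16 opposite arms and precursor entries looked for, 9 were listed, 7 of them with 24 reads or fewer. The better counted arms were miR-200a-5p with 563 reads and miR-200b-5p with 313. By limma these 2 of the 9 passed, both lower, beside 2.13% of all ncRNAs and 10.9% of the abundant miRNA entries downward, with log2 differences of -1.34 (p = 0.0373, exact permutation p = 0.0581) and -1.39 (p = 0.0459, exact permutation p = 0.0740). By the exact permutation test neither passed, and by limma neither passed when scaled to miRNA reads (-0.54 and -0.83). Of the summed miR-200a reads, the opposite arm took 7.42% in PS19 and 7.64% in WT, with 3.23 to 16.7% and 5.21 to 14.3% in single libraries. For miR-200b the shares were 13.2% and 13.3%, with 0 to 45.1% and 5.56 to 35.6% in single libraries. The ranges overlapped, and a difference in these shares was not tested.

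Among 16 other miRNAs of epithelial cells that were listed, out of 17 looked for, 0 were lower by limma at a raw p of 0.05, 1 was higher, and 13 had a negative value, with a median log2 difference of -0.65. Of all ncRNAs 4.85% passed in either direction, and the abundant miRNA entries were negative in 89.5% with the same median of -0.65. Only 8 of the 16 had a mean of at least 10 normalized counts, the threshold of those abundant entries. The medians therefore compare sets of unlike depth, and rare entries such as miR-96-5p with 5 reads could hardly pass. The median of the 16 was -0.03 when scaled to miRNA reads. The 4 with the most reads were the intestinal and renal miRNAs miR-215-5p, miR-192-5p and miR-194-5p and the endocrine miR-375-3p. Their log2 differences of -0.93, -0.81, -0.60 and -0.997, in the order miR-215-5p, miR-192-5p, miR-194-5p and miR-375-3p, did not pass. miR-192-5p and miR-194-5p are also abundant in liver. The miRNA that was higher, named after its value was seen, was miR-34b-5p, a miRNA of ciliated epithelia, at 0.90 (limma p = 0.0490, exact permutation p = 0.200). This entry rested on 16 reads from 3 PS19 libraries, with 0 reads in WT. The other arm, miR-34b-3p, had 1 read in PS19 and 17 reads in WT. Its log2 difference had the opposite sign, at -0.64.

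The members moved together from library to library on the authors' scale. Among the 10 pairs within the miR-200 family, Spearman's rho over the 16 libraries ran from 0.15 to 0.78 with a median of 0.65. Pairs from the same gene cluster had a median of 0.48 (4 pairs) and pairs from different clusters 0.71 (6 pairs). Of the same-cluster pairs, miR-200a-3p with miR-200b-3p had 0.77. The others held the rarely read miR-141-3p or miR-429-3p, at 0.57, 0.38 and 0.34. Pairs of different clusters without those rare members had 0.58 and 0.71, so the medians do not separate cluster from depth. Pairs with the same seed had a median of 0.71 (4 pairs) and pairs with different seeds 0.58 (6 pairs). Scaled to miRNA reads, the median of the 10 pairs was 0.41, and miR-141-3p had values of -0.17 to 0.31 with the other 4. The medians there were alike, 0.42 for the same cluster, 0.41 for different clusters, 0.41 for the same seed and 0.43 for different seeds. The highest pair on that scale was miR-200c-3p with miR-429-3p, which share a seed but not a cluster, at 0.75. These pair values describe libraries that share depth and composition.

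**Figure D3:**
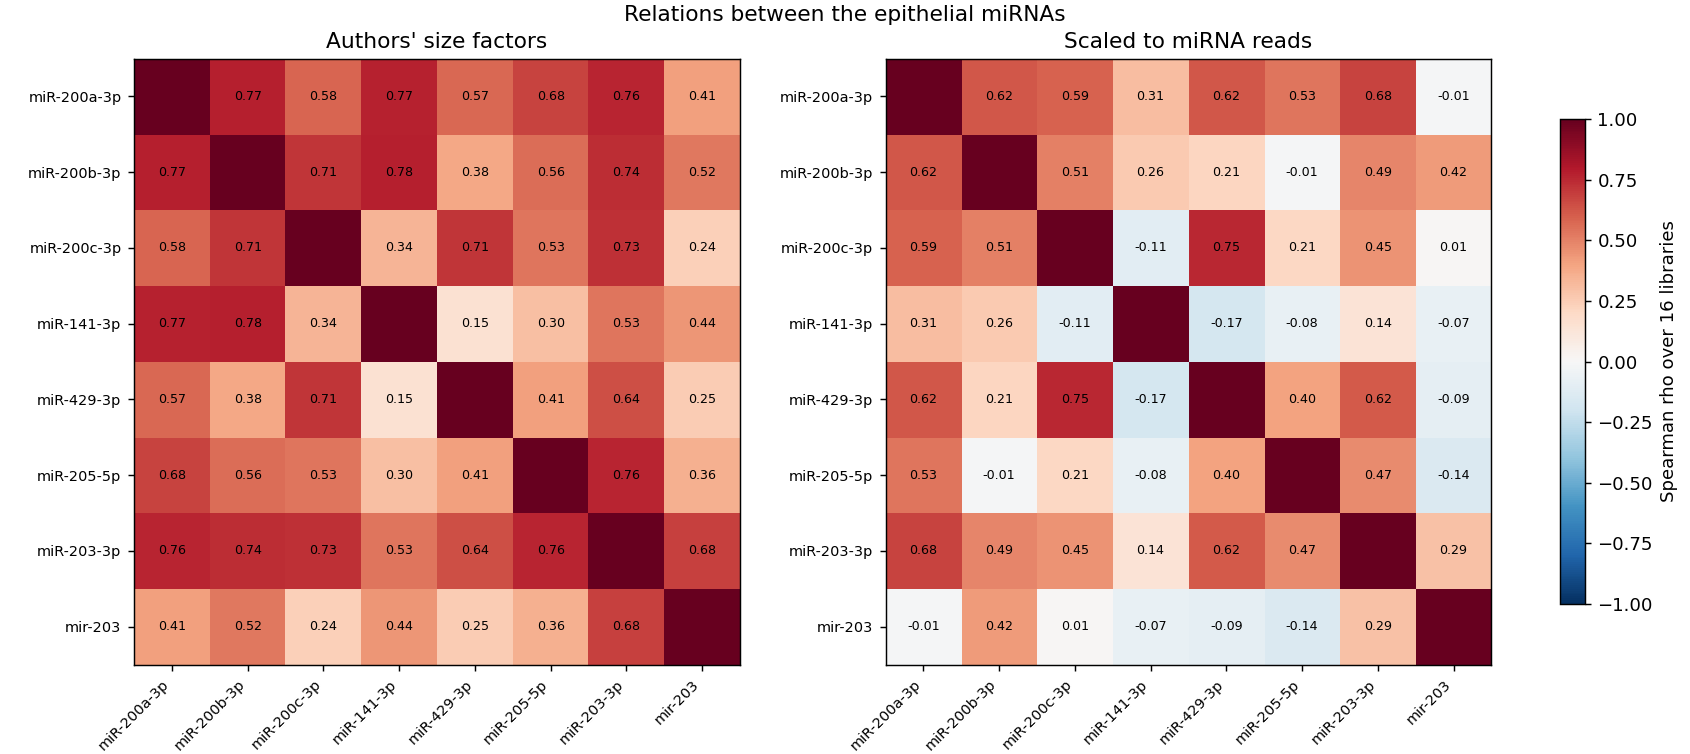
Spearman's rho between each pair of epithelial miRNAs over the 16 libraries, on the authors' scale at left and scaled to miRNA reads at right, with red for positive and blue for negative values. The pairs of the miR-200 family range from 0.15 to 0.78 at left, and at right miR-141-3p and mir-203 are close to 0 with most others.

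miR-203-3p rose and fell with the other epithelial miRNAs. Over the 16 libraries its Spearman's rho was 0.76 with miR-200a-3p (permutation p = 0.00103, Pearson's r = 0.90, permutation p = 1e-05, the smallest that 100000 resamples can give). With miR-205-5p rho was 0.76 (permutation p = 0.00094) and r was 0.83 (permutation p = 0.00016). With miR-200b-3p the values were rho 0.74 (permutation p = 0.00169) and r 0.74 (permutation p = 0.0010). With miR-200c-3p they were rho 0.73 (permutation p = 0.00201) and r 0.69 (permutation p = 0.00232). These 4 relations had adjusted p = 0.00352 for rho over the 7 relations computed.

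The rarer entries followed less closely. With miR-429-3p, rho was 0.64 (permutation p = 0.00891) and r was 0.57 (permutation p = 0.0183). With miR-141-3p, rho was 0.53 (permutation p = 0.0372) and r was 0.54 (permutation p = 0.0271). With its own precursor entry, rho was 0.68 (permutation p = 0.00464) and r was 0.46 (permutation p = 0.0727), so the linear relation did not pass. The adjusted p of rho for these 3 ran from 0.00650 to 0.0372. Without the 2 libraries farthest from the median of miR-203-3p, PS19 libraries 4 and 1, r was 0.78 with miR-200a-3p, 0.74 with miR-205-5p, 0.61 with miR-200b-3p, 0.57 with miR-200c-3p and 0.67 with miR-429-3p. With miR-141-3p, r was 0.41 (permutation p = 0.146), and by rho the relation with miR-141-3p also did not pass when any 1 of PS19 libraries 1, 3, 4, 5 and 7 or WT library 5 was left out (rho of 0.46 to 0.61 over the 16 fits without 1 library). With mir-203, r was 0.54 (permutation p = 0.0457).

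**Figure D4:**
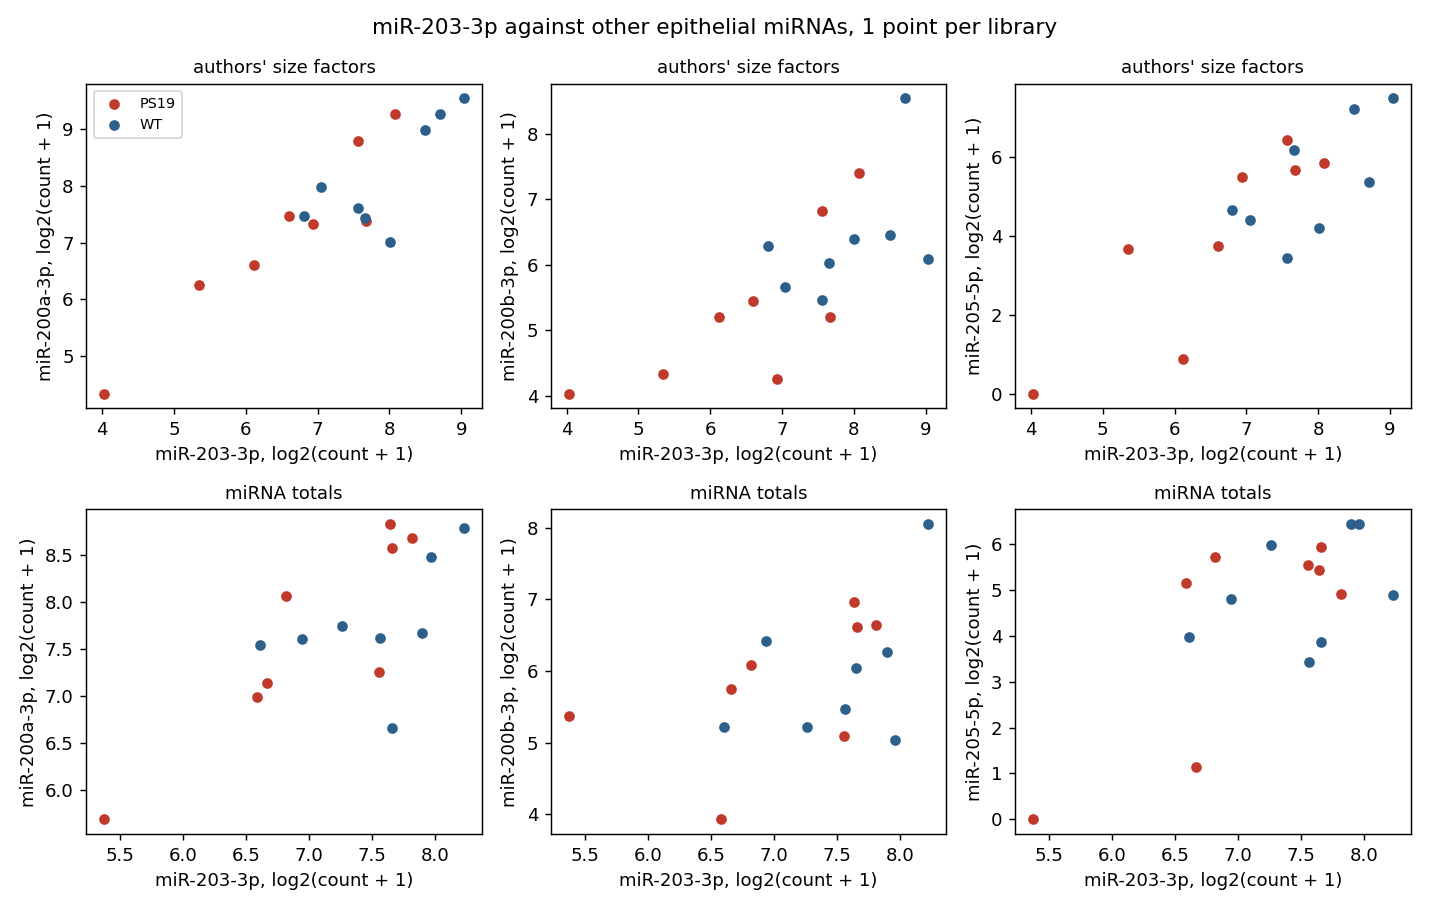
miR-203-3p (x axis) against miR-200a-3p, miR-200b-3p and miR-205-5p (y axes) as log2 of the count plus 1, with the authors' size factors in the upper row and miRNA totals in the lower row. Each point is 1 library, red for PS19 and blue for WT; the points of miR-200a-3p lie along a line in the upper row (r = 0.90) and are more spread in the lower row (r = 0.74), where PS19 library 4 is the leftmost point.

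Most abundant miRNAs followed miR-203-3p on the authors' scale. Over 292 other miRNA entries with a mean of at least 10 normalized counts, the median rho with miR-203-3p was 0.557 (quartiles 0.241 and 0.724), and 87.0% of values were positive. Of these entries 48 had a higher rho than miR-200a-3p, 49 than miR-205-5p, 65 than miR-200b-3p, 69 than miR-200c-3p, 114 than miR-429-3p and 153 than miR-141-3p. The level of miR-203-3p also followed the share of miRNA in the library, with rho 0.80 (permutation p = 0.00028) and r 0.87 (permutation p = 1e-05, the smallest possible here). Of 5 summed lists of other cell types, it followed the liver miRNAs (rho 0.79, r 0.77, adjusted permutation p = 0.00245 and 0.0008), the red blood cell miRNAs (rho 0.73, r 0.82, adjusted permutation p = 0.00475 and 0.0008) and the platelet and myeloid miRNAs (rho 0.63, r 0.78, adjusted permutation p = 0.0176 and 0.000867). The platelet and myeloid sum was mostly miR-126a-3p, with 33462 reads beside 769 of miR-223-3p, 708 of miR-142a-5p and 384 of miR-142a-3p. In that order, their single rho values with miR-203-3p were 0.62, 0.28, 0.53 and 0.26, all but the first below the median of 0.557. The paper describes miR-126-3p as mainly endothelial. The muscle miRNAs had rho 0.09 and r 0.21, and the neuron miRNAs rho 0.21 and r 0.05 (permutation p of rho 0.747 and 0.429). The 4 liver and the 4 red blood cell miRNAs all had negative log2 differences on the authors' scale, and by limma 1 of each list passed, where 5.05% of miRNA entries passed downward. Scaled to miRNA reads, 1 of 4 in each list was negative and 0 passed. Their sums were 39042 to 507539 and 1952 to 44873 normalized counts in PS19, and 132926 to 756339 and 17302 to 94866 in WT, and of these markers only miR-144-3p was without a read in any library (read in 14 of 16). Their part in the relations of miR-203-3p was not tested.

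Scaled to library totals, the median rho with miR-203-3p was 0.824 for the 292 entries and 0.849 for the 6 other mature members. There 75 entries had a higher rho than miR-200a-3p and 250 than miR-429-3p. Scaled to miRNA reads, most abundant miRNAs no longer followed miR-203-3p, whereas the epithelial members kept positive values. Dividing by the miRNA total lowers the correlation that all miRNAs share, so the lower median is partly set by the scaling. The 4 liver miRNAs weigh heavily in that total, at 212839 to 569278 miRNA RPM in PS19 and 190112 to 600336 in WT. The 292 entries had a median rho of 0.015 with miR-203-3p (quartiles -0.171 and 0.262). The 6 other mature members had a median of 0.481. miR-200a-3p had rho 0.68 (permutation p = 0.00491, adjusted p = 0.0344) and r 0.74 (permutation p = 0.00131), with 6 of the 292 entries higher. miR-429-3p had rho 0.62 (permutation p = 0.0129, adjusted p = 0.0451) and r 0.60 (permutation p = 0.00998), with 11 entries higher. The values of miR-200b-3p, miR-205-5p and miR-200c-3p were rho 0.49, 0.47 and 0.45 (permutation p = 0.0560, 0.0690 and 0.0838), with 21, 26 and 34 entries higher. The corresponding r of miR-205-5p, 0.69 (permutation p = 0.00495), passed. mir-203 had rho 0.29 and miR-141-3p 0.14, with 66 and 112 entries higher. On this scale rho between miR-203-3p and the miRNA share was 0.30 (permutation p = 0.266). With the liver, red blood cell, platelet and myeloid, muscle and neuron sums, rho was 0.31, 0.03, 0.10, -0.35 and -0.30. Of these lists, the neuron miRNAs had r -0.54 (permutation p = 0.0379, adjusted p = 0.190).

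The values on that scale changed with the libraries used. Without PS19 libraries 4 and 5, the 2 farthest from the median on this scale, rho with miR-200a-3p was 0.56 (permutation p = 0.0432) and r was 0.47 (permutation p = 0.0927), and 1 of the 7 relations passed by rho. Without the 3 libraries with few miRNA reads, rho with miR-200a-3p was 0.52 and 0 of 7 passed by rho, while by r miR-429-3p (0.56, permutation p = 0.0492) and mir-203 (0.57, permutation p = 0.0391) passed before adjustment (both adjusted p = 0.154). Within the 8 PS19 libraries, rho was 0.90 with miR-200a-3p, 0.93 with miR-200c-3p and 0.91 with miR-429-3p (exact permutation p = 0.00456, 0.00223 and 0.00476). Within the 8 WT libraries, the same relations had rho 0.67, 0.43 and 0.41 (exact permutation p = 0.0831, 0.299 and 0.312), and 0 of 7 passed by rho or r. Whether PS19 and WT differ in these relations was not tested. On the authors' scale, 3 of 7 relations passed by rho within PS19 (miR-200a-3p, miR-200c-3p and miR-205-5p) and 1 within WT (miR-429-3p, rho 0.81, exact permutation p = 0.0250). By r, 4 passed within PS19 (miR-200b-3p in addition) and 3 within WT (miR-200a-3p, miR-200c-3p and miR-429-3p), and after adjustment over the 7, 3 and 0. The sign of miR-141-3p changed within WT, to -0.14.

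**Figure D5:**
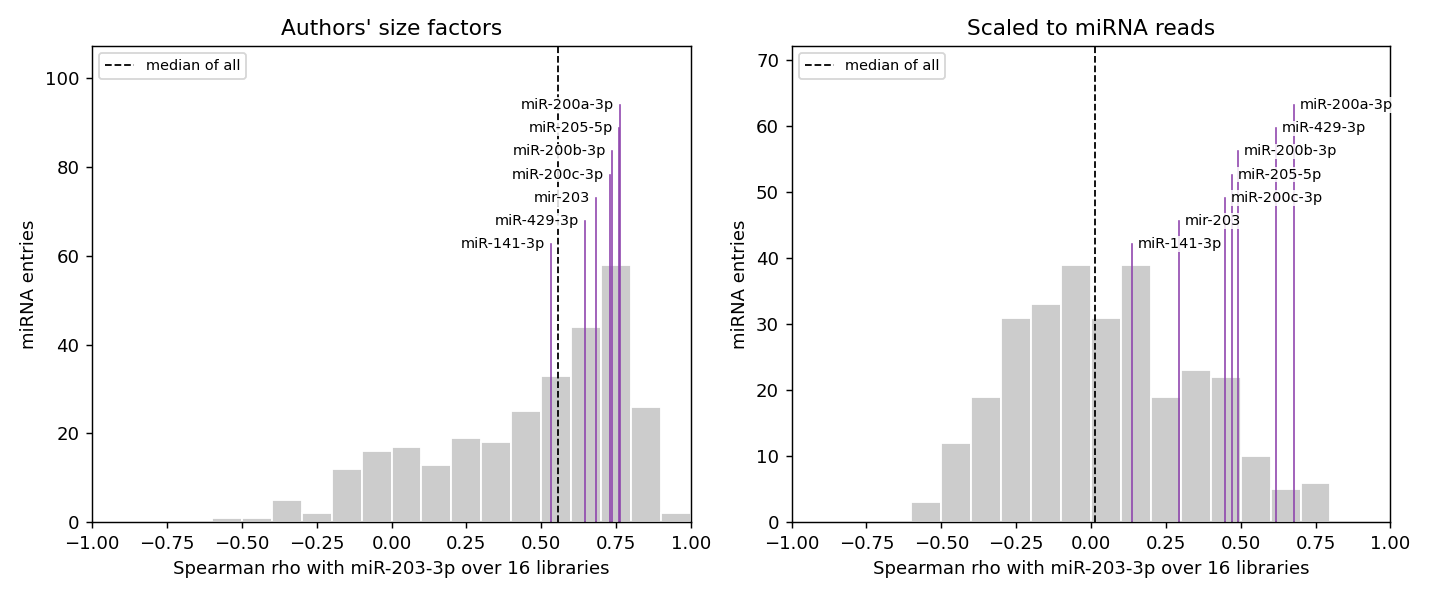
Distribution of Spearman's rho with miR-203-3p over 292 miRNA entries (gray, 16 libraries), with the other epithelial members marked by purple lines and the median of all entries by a dashed line. On the authors' scale (left) the median of all entries is 0.557 and the members lie between 0.53 and 0.76, and scaled to miRNA reads (right) the median is 0.015 and the members lie between 0.14 and 0.68.

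Other epithelial miRNAs outside the members gave a similar picture. The 8 of them with a mean of at least 10 normalized counts had a median rho with miR-203-3p of 0.784 on the authors' scale and 0.476 scaled to miRNA reads. All 8 were positive on both, beside 87.0% and 52.7% of the 292 entries. Scaled to miRNA reads they ran from 0.10 (miR-224-5p, with 121 entries higher) to 0.77. The entries most like miR-203-3p on the authors' scale were miR-146b-5p (rho 0.92), mir-92a-1 (0.91), miR-183-5p (0.89), miR-1198-5p (0.89) and miR-296-3p (0.88). Scaled to miRNA reads, their rho was 0.57, 0.66, 0.77, 0.40 and 0.36. On that scale the 5 closest of the 292 entries were miR-183-5p, a miRNA of sensory epithelia, miR-20a-5p (0.72), miR-24-3p (0.71), mir-322 (0.71) and mir-215 (0.70), each above the highest member (0.68).

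The closest entries to the summed level of the miR-200 family on the authors' scale were miR-215-5p (rho 0.87), mir-215 (0.86), miR-676-3p (0.85), miR-194-5p (0.85) and miR-1198-5p (0.84), out of 289 entries. miR-194-5p is also 1 of the 4 liver miRNAs. Scaled to miRNA reads, the values of miR-215-5p, mir-215 and miR-194-5p were 0.81, 0.84 and 0.71, whereas miR-676-3p had 0.08 and miR-1198-5p 0.33. The closest entry on that scale was miR-192-5p (0.85), which is also among the 4 liver miRNAs. It was the closest with library totals too (0.98). The rho between miR-203-3p and the summed family was 0.80 on the authors' scale, with 14 of 289 entries closer to the family, and 0.68 scaled to miRNA reads, with 12 of 289 closer.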

How the data were processed

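pEV small RNA was prepared with the NEBNext small RNA kit and sequenced single-end by the authors, who aligned it to mm10 with STAR 2.5.3a within COMPSRA and tested it with DESeq2 1.42.1, per the labels and methods. The deposited values are signal in the form of counts divided by a DESeq2 size factor. The deposited table also holds the authors' fold changes and p-values, which were not used. Dividing each library by its smallest value returned whole reads for 100.0% of values (tolerance 1e-06 of a read). On these reads DESeq2 (version 1.42.0) called 822 ncRNAs and edgeR (version 4.0.16) 2295 at a raw p of 0.05 (113 and 318 after adjustment).

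Main differences came from limma 3.58.1 (R 4.3.3, trended eBayes) on log2(normalized count + 1), with genotype as the only term, all 15159 ncRNAs, two-sided raw p of 0.05 as in the study and Benjamini-Hochberg adjustment over all ncRNAs. Fold changes of low entries are understated on that scale. Exact permutation tests (two-sided, 8 against 8 libraries) used the same scale, and correlations used 100000 resamples (exact within a genotype), with adjustment over the 7 relations of miR-203-3p with other members, over the 5 with marker lists or over the 8 of the members with the miRNA share. For the library and miRNA total scalings, reads were divided by the total relative to the geometric mean total, so the added 1 stays near 1 read. A p-value measures the spread between libraries of separate mice.

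Named entries were the 8 members, other products of their genes, up to 4 other epithelial miRNAs with the most reads, and the 5 entries of highest rho with miR-203-3p and with the summed family. Members, lists and tests were chosen with earlier results of these data known. The replicate numbers were checked for pairing: over 2625 ncRNAs, same-numbered PS19 and WT libraries correlated at -0.18 to 0.47, so they were not treated as pairs. The fits and correlations were tested on simulated data. Positions are from GENCODE and RefSeq for GRCm38 (mm10). Python 3.11.15, scipy 1.17.1 and matplotlib 3.10.9 were used.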

Additional observations from a re-analysis of the deposited data

Results flagged for a closer look

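Among the 16 groups of 8 libraries tested (8 members, each in PS19 and in WT), 2 held a library that stood apart by Dixon's criterion, and chance marks about 1 group in 20. miR-200b-3p was 370.5 normalized counts in WT library 5, where the next WT library had 86.2. mir-203 was 37.1 normalized counts in WT library 6, where the next WT library had 18.3.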

How the results depend on the processing

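The number of ncRNAs at a raw p of 0.05, 735 in the main comparison, was 441 with library totals, 1131 with miRNA totals (91.2% of them higher in PS19, against 56.1% on the authors' scale), 230 among entries with a mean of at least 10 and 2295 with edgeR. The number of members passing, 3 in the main comparison, was 0 with library totals, with miRNA totals, among libraries named with G like those of PS19, without the 3 libraries with few miRNA reads, and without them under miRNA totals. It was 2 with DESeq2 (miR-203-3p and mir-203) and 2 with edgeR (miR-429-3p and mir-203). Leaving out 1 library at a time gave 567 to 846 ncRNAs and 1 to 5 members. It was 1 member without PS19 library 1, 3 or 5 or WT library 1, 3 or 5, and 5 without PS19 library 8. miR-203-3p passed in 16 of 16 such fits, mir-203 in 8 and miR-141-3p in 5. The log2 difference of miR-203-3p ran from -1.59 to -1.01 over these fits. It ran from -1.29 to -0.58 for miR-200a-3p, -1.32 to -0.72 for miR-200b-3p and -0.67 to -0.05 for miR-200c-3p. For miR-205-5p it ran from -1.75 to -0.83 and for miR-429-3p from -1.22 to -0.52.

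The difference of miR-200c-3p turned positive with miRNA totals (0.47), without the 3 libraries with few miRNA reads (0.19) and with both (0.37). Of 7 relations of miR-203-3p, all 7 passed by rho in the main comparison. This became 2 with miRNA totals, 4 among the libraries named with G, 3 within PS19 and 1 within WT. With miRNA totals it was 4 within PS19, 0 within WT, 1 without the 2 farthest libraries and 0 without the 3 libraries with few miRNA reads. Leaving out 1 library gave 6 to 7. The relation with miR-141-3p turned negative within WT (-0.14), within WT under miRNA totals (-0.29) and without the 2 farthest libraries under miRNA totals (-0.16). In these cases the cause was not tested.

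The replicate numbers did not pair the libraries. With the replicate number as a block, 685 ncRNAs and 2 members passed: miR-205-5p passed, miR-203-3p still passed, and miR-141-3p and mir-203 did not. Alternatives that leave out libraries with few miRNA reads, or combine miRNA totals with a subset of libraries, were chosen after seeing the data. At 48 to 238 reads in all, the values of miR-141-3p, miR-429-3p and mir-203 are limited by depth.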
